A study of Mus musculus with 2 samples.

Results

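The 10 genes described here carry the transforming growth factor beta (TGF-beta) signal from ligand to nucleus: the ligand gene Tgfb1, the receptor genes Tgfbr1 and Tgfbr2, the SMAD genes Smad2, Smad3, Smad4 and Smad7, the co-repressor genes Ski and Skil, and Tgfbi, a gene named for its induction by TGF-beta. They were chosen by symbol from the 28482 genes of the count matrix, and all 10 had a row in it. The rule uses no measured value, but the genes were chosen with earlier results of these data known. TGF-beta is secreted in a latent form and, once released, binds the type II receptor TGFBR2, which brings in and activates the type I receptor TGFBR1. TGFBR1 phosphorylates SMAD2 and SMAD3, which join SMAD4 and enter the nucleus, while SMAD7, SKI and SKIL restrain the signal. In the central nervous system TGF-beta is known for maintaining the microglial state, and in T cells for restraining activation and for its part in regulatory T cell and T helper 17 differentiation.

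Single-cell RNA was measured in CD45+ cells (leukocytes and microglia) from spinal cords of 4 C57BL/6 mice at day 15 of EAE (experimental autoimmune encephalomyelitis), in which T cells against myelin inflame the spinal cord. Of these, 2 mice were untreated and 2 were inhibitor-treated, and EAE had been induced in both groups. The sources used here name neither the inhibitor, its target, dose or schedule, nor the age and sex of the mice. The title of the series speaks of WT and STAP-1 mice, but the labels of these 4 give no genotype beyond the strain. Cells of the 4 mice carried different antibody hashtags and were pooled on 1 BD Rhapsody run, so the groups share a library, and no cell index stood under more than 1 hashtag.

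After filtering, 19243 cells were kept: the untreated mice gave 4311 and 4537, the inhibitor-treated mice 5450 and 4945. Their counts summed to between 48928287 and 61562790 per mouse. The cells formed 23 clusters, of which 21 could be named from marker genes, with the 10 genes and the rest of their pathway left out of the clustering. A class name stands for cells that resemble that class. Ptprc, the gene of CD45, was detected in every class and mouse, at 57.6 counts per 1000000 counts (CPM) in 1 mouse's haematopoietic progenitors to 1300 CPM in NK cells. The cluster named monocyte or macrophage also had the basophil genes Prss34 and Mcpt8 among its 10 leading genes. T cell transcripts stood unevenly in microglia: 3 or more counts of 7 T cell receptor complex genes were found in 39.6% and 60.1% of microglia of the untreated mice, against 11.2% and 22.7% in the inhibitor-treated mice. In neutrophils the same share was 10.8% to 12.6% in the 4 mice. The contrasts of the 10 genes that involve microglia are therefore also given without such cells. Class levels and other pathway genes include these cells unless stated.

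Promoter sequences from RefSeq (GRCm38.p6, 250 bases before to 50 after the start) were at hand for 6 of the 10 genes (Tgfb1, Tgfbr1, Tgfbr2, Smad3, Ski and Tgfbi). Those of both receptor genes and of Tgfbi are shown because the class differences described below turn on these 3 genes. Capitals mark the SMAD box CAGAC (or GTCTG on the other strand) and the PU.1 core GAGGAA (or TTCCTC), and the marked matches do not overlap.
Tgfbr1, chr4:47352972-47353271, plus strand: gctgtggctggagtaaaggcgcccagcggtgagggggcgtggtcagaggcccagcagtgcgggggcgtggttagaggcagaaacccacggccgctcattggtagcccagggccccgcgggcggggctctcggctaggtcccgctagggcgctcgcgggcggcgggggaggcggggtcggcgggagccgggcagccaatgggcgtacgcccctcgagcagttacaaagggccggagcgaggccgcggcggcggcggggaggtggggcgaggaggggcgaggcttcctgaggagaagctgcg
Tgfbr2, chr9:116175314-116175613, minus strand: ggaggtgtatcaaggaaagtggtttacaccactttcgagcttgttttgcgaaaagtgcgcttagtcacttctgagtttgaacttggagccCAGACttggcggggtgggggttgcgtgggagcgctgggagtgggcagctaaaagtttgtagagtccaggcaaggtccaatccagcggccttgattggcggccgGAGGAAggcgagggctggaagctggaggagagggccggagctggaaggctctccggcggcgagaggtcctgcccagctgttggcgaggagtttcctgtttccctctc
Tgfbi, chr13:56609336-56609635, plus strand: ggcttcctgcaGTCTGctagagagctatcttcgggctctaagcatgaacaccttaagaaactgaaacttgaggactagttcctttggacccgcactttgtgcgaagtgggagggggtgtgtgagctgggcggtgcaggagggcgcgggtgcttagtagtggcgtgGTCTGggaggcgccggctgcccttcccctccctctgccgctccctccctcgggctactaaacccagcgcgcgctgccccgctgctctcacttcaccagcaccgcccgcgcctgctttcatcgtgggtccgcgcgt
The Tgfbr2 window held 1 SMAD box and 1 PU.1 core, the Tgfbi window 2 SMAD boxes and no PU.1 core, and the Tgfbr1 window neither. Tgfbr1 had 2 promoter entries, and the window given is the first. Of 32544 promoter windows of the same length in the table, 49.5% held a SMAD box and 28.1% a PU.1 core, so such matches are common. A GC box (GGGCGG or CCGCCC, not capitalised) stood in 35.9% of all windows, 2 times each in those of Tgfbr1 and Tgfbi and not in that of Tgfbr2. In GENCODE M21 (GRCm38) no other gene of the matrix overlaps any of the 10 genes.

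Levels below are CPM of the counts summed over a class in 1 mouse, and a mean ± SD is over the 4 mice of both groups unless a group is named. CPM are compared between classes within a gene, not between genes, and free RNA in the suspension can add a low level to every class. Orders of classes, with their highest and lowest, cover the 12 plotted classes, which leave out the haematopoietic progenitors (71 cells) and erythroid cells (94 cells).

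**Figure D1:**
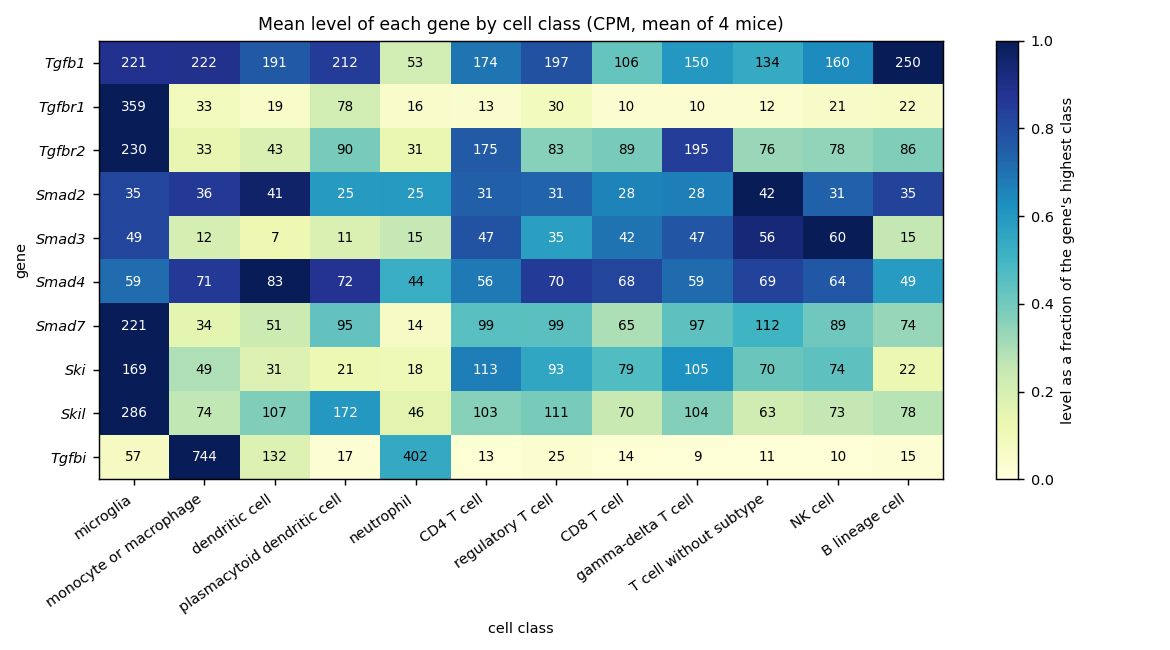
Mean CPM over 4 mice of each of the 10 genes (rows) in 12 cell classes (columns), with the colour giving the level as a fraction of the gene's highest class. Microglia are the highest class for Tgfbr1, Tgfbr2, Smad7, Ski and Skil, and Tgfbi peaks in monocytes or macrophages (744) and neutrophils (402).

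Tgfb1, the ligand gene, was carried by nearly all classes and was low in neutrophils. Among the 12 classes plotted its level was highest in B lineage cells (250 ± 50 CPM), followed by monocytes or macrophages (222 ± 21), microglia (221 ± 37) and plasmacytoid dendritic cells (212 ± 27), and the ranges of these 4 classes over the mice overlap. Neutrophils stood at 49.2 to 60.9 CPM, below every mouse of the other 11 classes in the plot of class means. Among B lineage cells, the cluster led by Vpreb3 and Rag1, genes of B cell precursors, had 302 ± 50 CPM against 211 ± 69 CPM in the cluster led by Ms4a1 and Ighd, with overlapping ranges. The small haematopoietic progenitor cluster of 71 cells, which is not plotted, stood at 265 ± 33 CPM. T cells as a whole held 35.36% ± 12.25 of all Tgfb1 counts of a mouse and microglia 15.2% ± 7.0.

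Tgfbr1, the type I receptor gene, was a microglial transcript in these cells. In microglia it stood at 277 and 228 CPM in the untreated mice and at 565 and 367 CPM in the inhibitor-treated mice. Plasmacytoid dendritic cells came next, at 62.1 to 113 CPM, and then monocytes or macrophages, at 19.3 to 47.3 CPM. These 3 ranges do not overlap, but that of monocytes or macrophages overlaps with the range of regulatory T cells (25.8 to 34.9 CPM). Microglia alone held 63.65% ± 9.07 of all Tgfbr1 counts of a mouse. Among the plotted classes the lowest means were those of CD8 T cells (9.9 ± 4.6 CPM) and gamma-delta T cells (10.4 ± 5.0 CPM), and progenitors (10.3 ± 3.6 CPM) and erythroid cells (8.1 ± 3.0 CPM) were as low. As a measure of free RNA, the summed level of 16 microglia markers in neutrophils was 0.655% to 1.57% of that in the microglia of the same mouse, and Tgfbr1 there was 2.91% to 7.58% of its microglial level. In CD8 T cells the Tgfbr1 share was 2.73% and 5.85% in the untreated and 0.822% and 3.83% in the inhibitor-treated mice, where the marker share was 1.04%, 3.68%, 0.817% and 1.13%. The Tgfbr1 share was thus nearly equal to the marker share in inhibitor-treated replicate 1 and above it in the other 3 mice.

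Tgfbr2, the type II receptor gene that binds the ligand, was shared by microglia and part of the T cells. It averaged 230 ± 28 CPM in microglia, 195 ± 24 in gamma-delta T cells and 175 ± 12 in CD4 T cells, and these neighbours overlap over the mice. Regulatory T cells (82.9 ± 6.3 CPM) and CD8 T cells (89.2 ± 14) formed a lower step, as did B lineage, NK and plasmacytoid dendritic cells. Of the plotted classes neutrophils had the lowest mean, at 29.4 to 33.3 CPM, beside monocytes or macrophages at 19.1 to 53.3 CPM. Progenitors, which are not plotted, were lower at 12.6 to 17.0 CPM, and erythroid cells spread from 8.2 to 53.1 CPM. Cells with a high Tgfbr2 level therefore fell into those with much Tgfbr1, the microglia, and those with little, the CD4 and gamma-delta T cells.

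**Figure D2:**
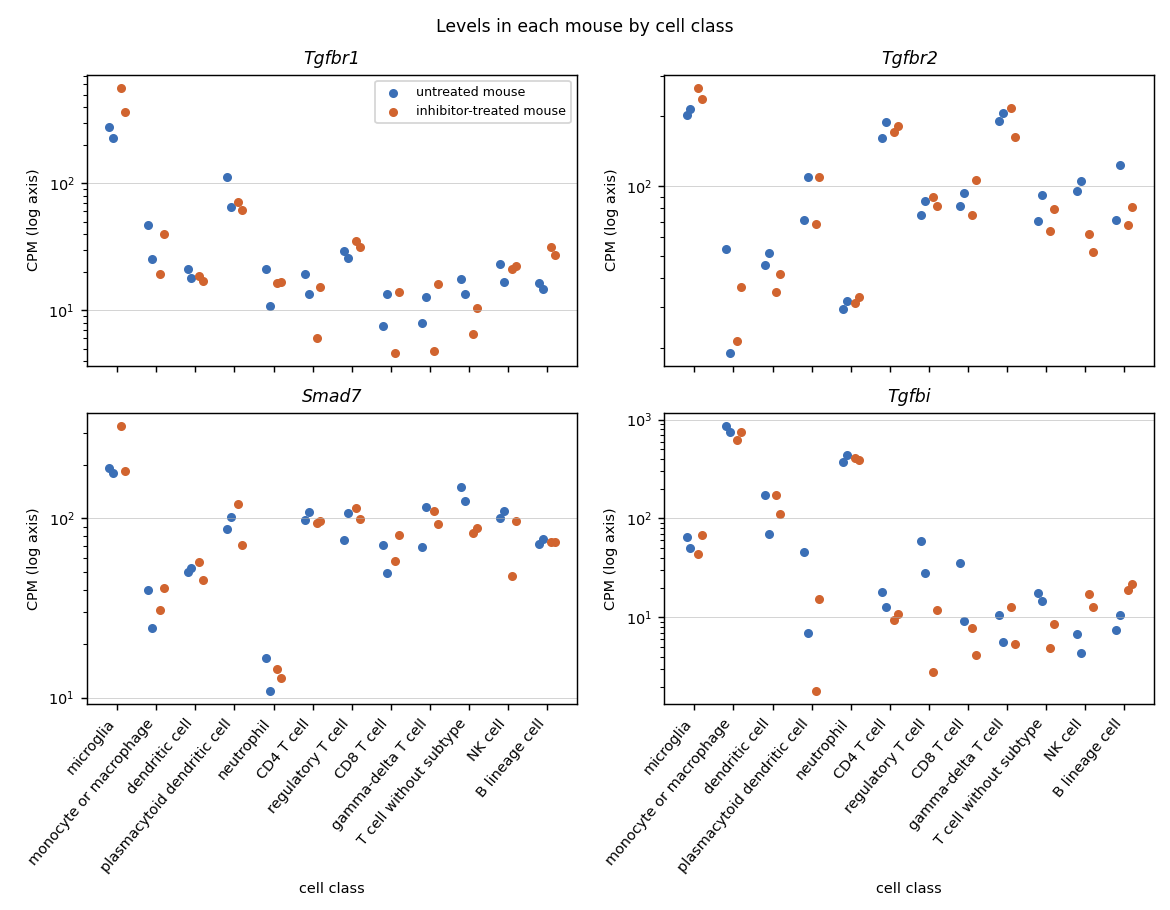
CPM (log axis) of Tgfbr1, Tgfbr2, Smad7 and Tgfbi in 12 cell classes, 1 point per mouse, untreated in blue and inhibitor-treated in orange. For Tgfbr1 the 4 microglia points (228 to 565) lie above those of every other class shown, and for Tgfbi the monocyte or macrophage points (623 to 860) do.

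Smad2 and Smad4, the genes of a receptor-activated SMAD and of the common partner SMAD, varied least between the 12 plotted classes. Among these, Smad2 means ran from 24.9 ± 3.9 CPM in plasmacytoid dendritic cells to 42.1 ± 20 in T cells without a subtype, with overlapping ranges, and Smad4 means ran from 43.7 ± 2.6 CPM in neutrophils to 82.7 ± 18 in dendritic cells. Erythroid cells, which are not plotted, were lower for both, at 3.5 ± 2.2 CPM for Smad2 (8 counts in all) and 13.8 ± 6.1 CPM for Smad4, and haematopoietic progenitors had 24.6 ± 15 CPM of Smad4. Smad3, the gene of the other receptor-activated SMAD, was lymphoid and microglial. It averaged 60.2 ± 16 CPM in NK cells, 47.0 ± 3.3 in CD4 T cells and 49.4 ± 11 in microglia, against 7.1 ± 3.9 in dendritic cells, 11.3 ± 2.8 in plasmacytoid dendritic cells, 12.4 ± 5.8 in monocytes or macrophages and 15.1 ± 0.8 in neutrophils. B lineage cells, at 15.5 ± 6.2 CPM, were the lymphoid exception. By mean level, both kinds of dendritic cells and monocytes or macrophages, the highest 3 of the 12 classes for Smad4, thus were the lowest 3 for Smad3. The ranges over the mice overlap with those of other classes. Smad4 was at 67.6 to 78.6 CPM in monocytes or macrophages and 54.4 to 97.8 in regulatory T cells. Smad3 was at 6.35 to 20.3 CPM in monocytes or macrophages and 14.0 to 15.8 in neutrophils.

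Smad7, the inhibitory SMAD gene that is itself a target of the pathway, stood at 192 and 180 CPM in microglia of the untreated mice, while the inhibitor-treated mice had 328 and 185 CPM. These 4 values lie above those of all other classes. T cells without a subtype followed at 83.1 to 149 CPM, and neutrophils were lowest of the plotted classes at 10.9 to 16.7 CPM. The co-repressor genes shared microglia as their highest class and differed in the order of the other classes. Ski was at 169 ± 34 CPM in microglia, 113 ± 12 in CD4 T cells and 20.9 ± 5.7 in plasmacytoid dendritic cells. Skil was at 286 ± 46 CPM in microglia, 103 ± 13 in CD4 T cells and 172 ± 36 in plasmacytoid dendritic cells, where the lowest mouse (143) lay above the highest of the CD4 T cells (110). In the cluster led by Vpreb3 and Rag1 Ski averaged 3.8 ± 4.4 CPM and Skil 59.0 ± 44 CPM.

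Tgfbi, which encodes a secreted matrix protein that binds integrins, had another pattern from the remaining genes: it was myeloid and low in microglia and lymphocytes. In monocytes or macrophages it stood at 860 and 751 CPM in the untreated and 623 and 743 CPM in the inhibitor-treated mice. Neutrophils had 372 and 437 CPM in the untreated and 412 and 389 CPM in the inhibitor-treated mice, below monocytes in each mouse. Dendritic cells (132 ± 51 CPM) and microglia (56.7 ± 12 CPM) were lower, and T cells were at 14.7 ± 7.9 CPM. Neutrophils held 71.9% ± 12.2 of all Tgfbi counts of a mouse.

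Within neutrophils Tgfbi differed between clusters in the same order in each mouse up to the last 3 clusters. The cluster led by Ltf and Camp, granule genes of immature neutrophils, had 67.6 to 106 CPM, and the cluster led by Olfm4 had 144 to 226 CPM. The cluster led by Mmp8 and Cd177 had 303 to 326 CPM. The clusters led by Retnlg (516 to 621 CPM), by Stfa genes (589 to 750) and by Il1b (627 to 921), genes of mature and activated neutrophils, were highest. The range of the Stfa cluster overlapped with both others, and those of the Retnlg and Il1b clusters did not overlap. The first 3 clusters do not overlap with each other or with the last 3. An unnamed cycling cluster led by Fcnb and Chil3 averaged 72.3 CPM. Since clusters were found in the same cells, the order is a description with no test. The median count per cell in these clusters differed too, from 12387 to 17360 in the Ltf cluster to 5888 to 6908 in the Il1b cluster.

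**Figure D3:**
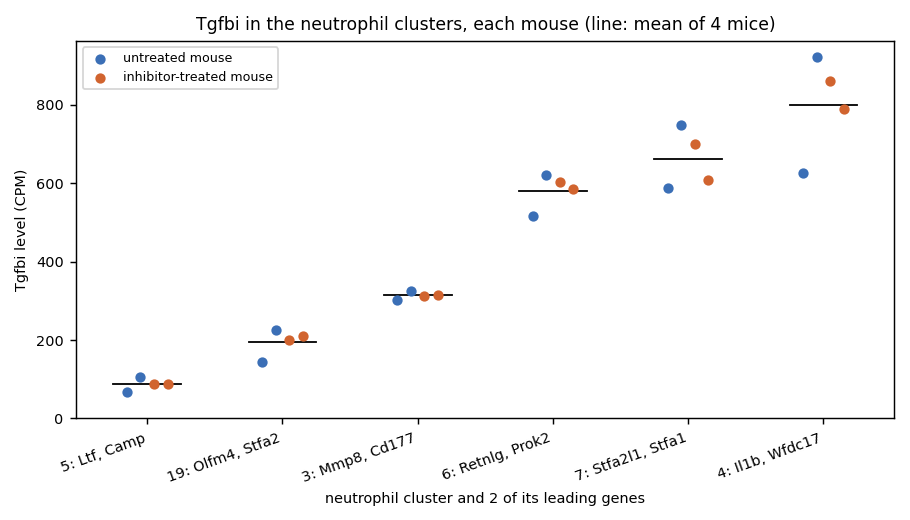
Tgfbi level (CPM) in the 6 neutrophil clusters, 1 point per mouse with the mean of 4 mice as a line, untreated in blue and inhibitor-treated in orange. Means run from 87.6 in the Ltf and Camp cluster to 799 in the Il1b cluster, and the groups of mice overlap in every cluster.

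Differences between classes were tested with edgeR on counts summed per mouse and class, with the mouse as a block, and p-values were adjusted over all genes of a comparison. A gene is called at an adjusted p under 0.05. The classes were found in these same cells, so a call says that the classes differ in these 4 mice and not that independently sorted cells would.

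Microglia were set against the cluster named monocyte or macrophage. The levels of both classes in each mouse are those given above and in the plot of levels by mouse. Of the 10 genes, 6 were higher in microglia and 1 was lower, where 28.7% of 13761 genes were called. Tgfbr1 was higher by a log2 fold of 3.41 ± 0.33 (SE, adjusted p = 9.22e-06), Tgfbr2 by 2.89 ± 0.29 and Smad7 by 2.66 ± 0.25. Smad3, Ski and Skil were higher by 2.03 ± 0.32, 1.97 ± 0.37 and 1.97 ± 0.24. Tgfbi was lower, at -3.74 ± 0.22 (adjusted p = 2.28e-07). Tgfb1 (-0.03 ± 0.20), Smad2 (-0.11 ± 0.30) and Smad4 (-0.31 ± 0.23) were not called. The median over the 10 genes was 1.97 against 0.09 over all genes tested. Without the microglia and macrophages that held 3 or more T cell receptor complex counts, the same 7 genes were called, with Tgfbr1 at 3.69 ± 0.30 and Tgfbr2 at 2.96 ± 0.29. The monocyte or macrophage cluster had the basophil genes Prss34 and Mcpt8 among its 10 leading genes. It also held neutrophil transcripts, with a summed level of 18 neutrophil markers of 1586 to 8140 CPM. Its median mitochondrial share was 5.59% to 11.44%. The part of these in the differences was not tested.

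Some other genes of the pathway were also called in this contrast, where 28.7% of 13761 genes were called. The count among the SMAD regulators lies near that share, and no list was tested as a set. Of 15 genes that regulate SMAD signalling, 5 were higher in microglia and 0 lower, among them Pmepa1 (3.45 ± 0.24), a feedback inhibitor that binds SMADs, Ldlrad4 (2.46 ± 0.55), a related inhibitor, and Tgif1 (1.42 ± 0.27), a co-repressor. Of 9 other receptors tested, 4 were higher, among them the BMP receptor genes Acvr1 (2.77 ± 0.51) and Bmpr2 (1.19 ± 0.27) and Bmpr1a, which was at 18.0 ± 6.6 CPM in microglia and 0.8 ± 1.6 CPM in monocytes or macrophages. TGF-beta-induced transcripts split, with 3 of 10 higher and 3 lower. Among the higher were the AP-1 genes Jun and Junb, by 1.99 ± 0.25 and 1.29 ± 0.21. Of 6 genes of latency and activation, the integrin gene Itgav was higher (1.54 ± 0.38), and Thbs1 (-2.34 ± 0.29), whose product can activate latent TGF-beta, and Ltbp3 (-2.79 ± 0.93) were lower. Smad1, a SMAD of the BMP branch, was higher by 1.04 ± 0.30, and Smad6 (1.81 ± 1.07) and Smad5 (0.36 ± 0.38) were not called. Inhba, a subunit gene of activin, was lower (-1.81 ± 0.57), and Gdf15 (1.52 ± 0.70) and Bmp7 (1.21 ± 1.04) were not called. All 12 genes known to depend on TGF-beta in microglia were higher, led by Gpr34, P2ry12 and Sparc, but 10 of these 12 are also among the markers that named the class, so this count is no finding.

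**Figure D4:**
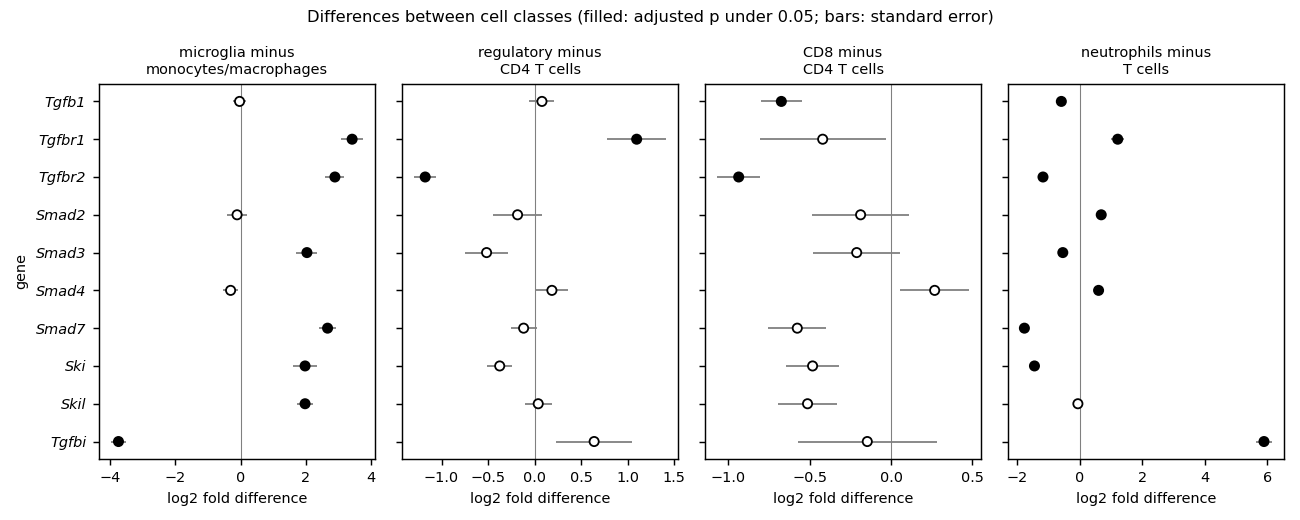
Log2 fold differences (points) with standard errors (bars) of the 10 genes in 4 contrasts between cell classes, filled where the adjusted p is under 0.05. Tgfbr2 is filled in all 4 panels, higher in microglia (2.89) and lower in regulatory (-1.18) and CD8 T cells (-0.94) and in neutrophils (-1.18).

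Among T cells, Tgfbr2 was lower in regulatory and in CD8 T cells than in CD4 T cells. Regulatory T cells, the cluster led by Foxp3, were compared with CD4 T cells of the other clusters. Tgfbr2 was 74.6 and 85.7 CPM in regulatory T cells of the untreated mice and 89.4 and 81.9 CPM in those of the inhibitor-treated mice, against 161 and 188 and then 171 and 181 CPM in CD4 T cells. No mouse overlapped, and the log2 fold was -1.18 ± 0.12 (adjusted p = 5.54e-05). Tgfbr1 went the other way, at 29.2, 25.8, 34.9 and 31.3 CPM in regulatory and 19.3, 13.4, 6.0 and 15.2 CPM in CD4 T cells in the same order of mice. Each mouse was higher in regulatory T cells, by a log2 fold of 1.10 ± 0.31 (adjusted p = 0.0464). This call was lost without any 1 of the 4 mice (log2 folds 0.77 to 1.33, adjusted p 0.0652 to 0.139), with called doublets kept (adjusted p = 0.079) and with cells thinned to 2000 counts (adjusted p = 0.153). The summed microglia markers were 711, 513, 179 and 264 CPM in regulatory and 343, 461, 263 and 273 CPM in CD4 T cells, and their part in the difference was not tested. The other 8 genes were not called, with 10.5% of 13638 genes called in all.

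Of 7 measured genes that present or activate latent TGF-beta, 3 were higher in regulatory T cells and 1 was lower. In this contrast 10.5% of 13638 genes were called. Lrrc32, which encodes GARP, the surface anchor of latent TGF-beta, stood at 90.9 ± 15 CPM in regulatory and 3.8 ± 2.8 CPM in CD4 T cells (log2 fold 4.69 ± 0.30). It was also among the 10 leading genes of that cluster, although it took no part in the clustering. Itgb8, the integrin subunit that releases the ligand, was at 16.8 ± 4.0 against 1.7 ± 1.4 CPM (3.53 ± 0.49), and Furin, the convertase that cleaves the TGF-beta precursor, was lower (-1.40 ± 0.16). Among 10 TGF-beta-induced transcripts, Itgae, the CD103 integrin gene, was higher by 4.95 ± 0.30 and 3 were lower, among them Bhlhe40 (-1.13 ± 0.08) and Junb (-0.69 ± 0.06). Of 14 regulators, Pmepa1 was higher (0.93 ± 0.13), Tob1 was lower (-1.21 ± 0.18) and Hipk2 (0.75 ± 0.24) was not called. In the remaining lists Smad1 (-2.50 ± 0.55) and Tgfbr3 (-3.14 ± 0.90), the betaglycan co-receptor gene, were lower and Bmp7 (1.45 ± 0.33) was higher.

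CD8 T cells differed from CD4 T cells by lower Tgfb1 and Tgfbr2, where 6.18% of 12839 genes were called. This contrast and that of regulatory T cells share the CD4 T cells. Tgfb1 was 96.2, 110, 101 and 116 CPM in CD8 T cells against 173, 175, 147 and 200 CPM in CD4 T cells of the same mice (untreated first), a log2 fold of -0.67 ± 0.12 (adjusted p = 0.00483). Tgfbr2 was 82.1, 93.5, 75.1 and 106 CPM in CD8 T cells, a log2 fold of -0.94 ± 0.13 (adjusted p = 0.000688). Neither gene overlapped between these classes. The Tgfb1 call was lost with cells thinned to 2000 counts (log2 fold -0.52, adjusted p = 0.132) and without untreated replicate 1 (adjusted p = 0.0502). Smad7 (-0.58 ± 0.18), Skil (-0.51 ± 0.18) and Ski (-0.48 ± 0.16) were below CD4 T cells without passing the threshold. Of 10 TGF-beta-induced transcripts 4 were lower and 0 higher, among them Junb (-0.96 ± 0.08), Bhlhe40 (-0.97 ± 0.12) and Jun (-0.77 ± 0.10). Furin was lower too (-1.62 ± 0.19). Of 4 other ligands, Bmp7 was lower (-2.30 ± 0.49) and Tgfb3, with 0 counts in CD8 T cells of the 4 mice together (which allows up to 0.497 CPM) against 3.3 ± 1.6 CPM in CD4 T cells, passed the threshold. None of 14 regulators was called, nor any of 5 other receptors or 2 other SMADs.

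Neutrophils were set against T cells, the most numerous classes. Of the 10 genes 9 were called, 4 higher and 5 lower, where 70.8% of 17876 genes were called, and scaling mattered: by library size alone the median gene stood at -1.02 instead of 0.03. Tgfbi was higher in neutrophils by a log2 fold of 5.89 ± 0.25 (4.84 ± 0.24 by library size alone). Smad7 (-1.78 ± 0.13), Ski (-1.45 ± 0.10), Tgfbr2 (-1.18 ± 0.09), Tgfb1 (-0.59 ± 0.08) and Smad3 (-0.55 ± 0.12) were lower, and stayed lower by library size alone. Smad2 (0.68 ± 0.12) and Smad4 (0.60 ± 0.09) were called higher but turned to -0.37 and -0.45 by library size alone, and Tgfbr1 (1.21 ± 0.21) went to 0.16 ± 0.22. The direction of Smad2 and Smad4 therefore rests on the scaling, as do the size and the call of the Tgfbr1 difference. The CPM of these 3 genes were 25.02 ± 4.98 against 31.9 ± 1.9 (Smad2), 43.7 ± 2.6 against 59.8 ± 4.0 (Smad4) and 16.3 ± 4.1 against 14.7 ± 4.5 (Tgfbr1). Skil was not called (-0.06 ± 0.11).

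Neutrophils also differed from T cells in other branches of the family. Acvrl1, a type I receptor gene best known from endothelium, was at 157 ± 14 CPM against 4.2 ± 0.8 CPM in T cells, and Inhba at 36.9 ± 2.9 against 2.8 ± 0.2 CPM. Thbs1 stood at 219 ± 91 CPM against 5.2 ± 1.7, and Id1, a target of the BMP branch, at 90.7 ± 18 against 5.0 ± 1.7. All 4 log2 folds (4.77 to 6.36) exceed the shift between scalings, and Acvrl1 was also among the 10 leading genes of the Mmp8 cluster. In the other direction Pmepa1 was at 4.7 ± 1.8 against 87.9 ± 16 CPM and Ldlrad4 at 0.87 ± 0.28 against 24.8 ± 5.5 CPM. The counts over the lists rest on the scaling, and 70.8% of 17876 genes were called in the main fit. Of 15 regulators 8 were called higher and 3 lower, but 1 and 8 by library size alone. Of 11 TGF-beta-induced transcripts it was 4 and 5, but 1 and 9 by library size alone.

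The inhibitor was compared with no treatment over the 2 mice of each group, in all kept cells and in 13 classes. In none of these 14 comparisons was any of the 10 genes called, and the lowest adjusted p of a member was 0.454. Over all genes, 0% were called in 11 of the 14 fits, all kept cells, microglia, T cells and neutrophils among them, 0.0182% in B lineage cells, 0.0303% in NK cells and 0.0102% in CD8 T cells. In all kept cells 2152 genes had an unadjusted p under 0.05 with edgeR and 462 were called by DESeq2, an alternative count model. Of the 140 values of members, 15 lay under an unadjusted p of 0.05, and 1 was called by DESeq2, Tgfbi in all kept cells. Over all genes such values ranged in number from 406 of 10393 in plasmacytoid dendritic cells to 2152 of 21131 in all kept cells. The 14 comparisons share cells, since all kept cells hold the classes and T cells hold their subsets, so the 140 values are not separate. An exact permutation test of 2 against 2 mice cannot go below 0.333, so no such test was run. A change short of the threshold is not shown to be absent with these 4 mice.

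In microglia Tgfbr1 had the largest difference, with both inhibitor-treated mice (565 and 367 CPM) above both untreated mice (277 and 228 CPM). Its log2 fold was 0.84 ± 0.26 (adjusted p = 0.454). The T cell marker sum in the same microglia was 1634 and 3821 CPM in the untreated and 369 and 752 CPM in the inhibitor-treated mice, lowest where Tgfbr1 was highest. Without the microglia that held 3 or more T cell receptor complex counts, Tgfbr1 was 360 and 348 CPM in the untreated and 561 and 388 CPM in the inhibitor-treated mice, a log2 fold of 0.40 ± 0.23 (adjusted p = 0.999). Smad2 in microglia was at 31.4 and 20.1 CPM against 48.0 and 39.1 CPM, a log2 fold of 0.70 ± 0.28 (adjusted p = 0.514). It was 0.50 ± 0.32 without those cells. Of the 10 genes 9 had a log2 fold above 0 in microglia, with a median of 0.36 against 0.02 over all genes. Without the cells that held T cell receptor complex counts 7 of the 10 were above 0, with a median of 0.15 against 0.003 over all genes, and Tgfbi (-0.575), Smad4 (-0.07) and Tgfbr2 (-0.05) were below. The inhibitor effect on Tgfbr1 in microglia less that in T cells was 1.25 ± 0.46 (adjusted p = 0.432; 0.85 ± 0.45 without those cells), with 0% of 16944 genes called in that comparison by edgeR, 1666 at an unadjusted p under 0.05 and 237 called by DESeq2.

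**Figure D5:**
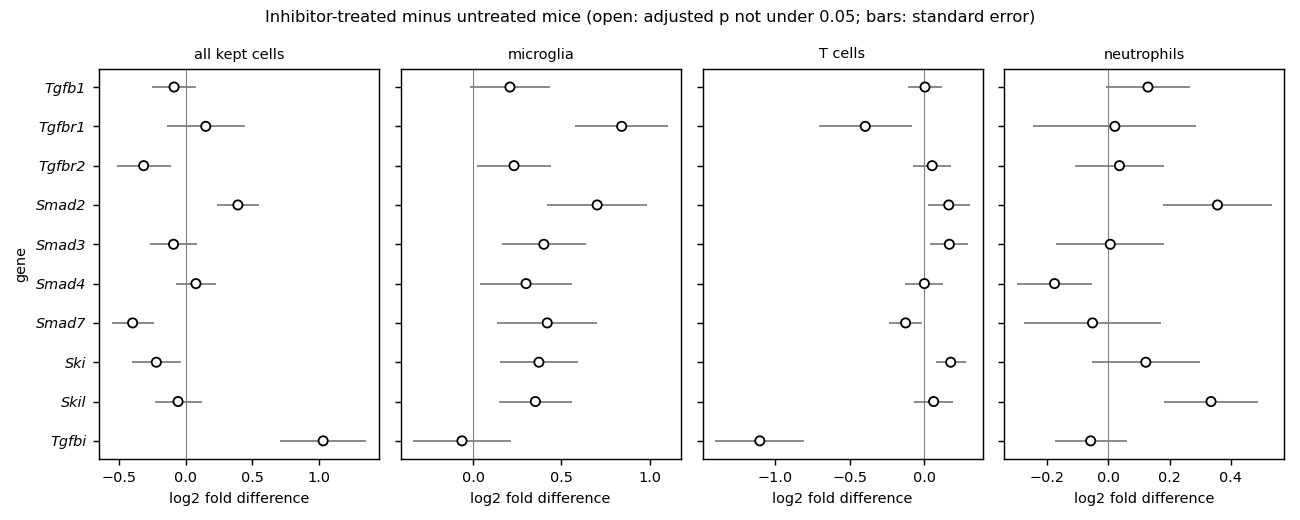
Log2 fold differences of inhibitor-treated minus untreated mice (points) with standard errors (bars) of the 10 genes in all kept cells, microglia, T cells and neutrophils, each panel on its own scale. All points are open (adjusted p not under 0.05), and Tgfbi lies at 1.03 in all kept cells but at -0.06 in neutrophils.

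Tgfbi and the share of neutrophils were both higher over all cells of the inhibitor-treated mice. Over all kept cells it was 135 and 114 CPM in the untreated and 267 and 165 CPM in the inhibitor-treated mice, without overlap, a log2 fold of 1.03 ± 0.32 (adjusted p = 0.461 with edgeR and 0.0332 with DESeq2). Neutrophils made up 23.15% and 17.19% of kept cells in the untreated and 59.39% and 35.47% in the inhibitor-treated mice, the same order of mice as for Tgfbi. In such a sum, more cells of a type and more RNA per cell cannot be told apart. Within neutrophils the log2 fold was -0.06 ± 0.12, and within monocytes or macrophages -0.27 ± 0.20. The neutrophil, B lineage, progenitor and erythroid classes were grouped as marrow classes. With them left out, the log2 fold of Tgfbi was 0.42 over the remaining cells (adjusted p = 0.963). The B cell precursor cluster led by Vpreb3 and Rag1 made up 1.18% and 0.75% of kept cells in the untreated and 3.82% and 2.35% in the inhibitor-treated mice. That is the same order of mice as for neutrophils. Whether cells of these classes came from bone marrow was not tested. In T cells Tgfbi was at 25.9 and 14.5 CPM in the untreated and 8.48 and 9.95 CPM in the inhibitor-treated mice, a log2 fold of -1.10 ± 0.30 (adjusted p = 1). In regulatory T cells it was at 59.0 and 28.0 against 2.8 and 11.9 CPM, a log2 fold of -2.36 ± 0.64 (adjusted p = 1). The regulatory T cell levels are 0.678% to 15.9% of those in neutrophils of the same mouse, where summed neutrophil markers were 0.248% to 0.358% of theirs. Against monocytes or macrophages of the same mouse, Tgfbi in regulatory T cells was 6.86% and 3.73% in the untreated mice. It was 0.448% and 1.6% in the inhibitor-treated mice. The share of summed monocyte or macrophage markers was 4.87% and 3.43% in the untreated and 4.52% and 5.3% in the inhibitor-treated mice. Summed monocyte or macrophage markers in T cells were 1593 and 1178 CPM in the untreated and 1352 and 1347 CPM in the inhibitor-treated mice. The part of RNA from other cells in these values was not tested.

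In all kept cells Smad2 (0.39 ± 0.16) and Smad7 (-0.40 ± 0.16) also had an unadjusted p under 0.05. In neutrophils all 10 log2 folds lay within 0.36 of 0, the largest being Smad2 (0.36 ± 0.18) and Skil (0.34 ± 0.15). In T cells the members other than Tgfbi and Tgfbr1 (-0.40 ± 0.31) lay within 0.18. In NK cells Tgfb1 (-0.69) and Tgfbr2 (-0.81), in CD8 T cells Smad4 (-0.79) and Tgfbi (-1.98), in monocytes or macrophages Ski (-1.34), in T cells without a subtype Smad7 (-0.64), in dendritic cells Tgfb1 (0.575) and in CD4 T cells Ski (0.27) had an unadjusted p under 0.05, with adjusted p-values of 0.960 or more. The inhibitor effect on Tgfbi in neutrophils less that in T cells was 1.00 ± 0.32 (adjusted p = 1), with 0% of 17876 genes called there by edgeR, 791 at an unadjusted p under 0.05 and 0 called by DESeq2.

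No gene of the other pathway lists was called by edgeR for the inhibitor in all kept cells, microglia, T cells or neutrophils, and those with the smallest unadjusted p are given as values. At an unadjusted p under 0.05 stood 8 of 70, 7 of 59, 7 of 61 and 11 of 50 genes. Over all genes tested it was 2152 of 21131, 1349 of 14307, 784 of 16762 and 800 of 13990, in the same order. DESeq2 called Acvrl1, Inhba and Lrrc32 in all kept cells, Bhlhe40 in microglia, C1qa in T cells and C1qa and Sparc in neutrophils. Its calls over all genes in these comparisons were 462, 126, 15 and 13. In all kept cells Lrrc32 was at a log2 fold of -1.18 ± 0.20, Ahr at -0.73 ± 0.21, Inhba at 1.27 ± 0.39 and Acvrl1 at 1.22 ± 0.36. The latter pair were neutrophil transcripts in these cells and Lrrc32 a regulatory T cell transcript, and regulatory T cells made up 4.73% and 6.04% of kept cells in the untreated and 1.34% and 2.97% in the inhibitor-treated mice. In microglia Bhlhe40 was at -2.03 ± 0.43 and Lrrc32 at -2.83 ± 0.76, genes that stood at 465 and 14.6 CPM in T cells against 91.3 and 6.1 CPM in microglia, beside the T cell marker sums given above. Sall1 (0.75 ± 0.22) and Fcrls (1.05 ± 0.36), genes that depend on TGF-beta in microglia, were above 0, as were all 12 genes of their list (median 0.52, against 0.02 over all genes). Most of these 12 are also among the markers that named the class, so the count is no finding. T cell transcripts were more frequent in microglia of the untreated mice, and their part in these values was not tested. In T cells C1qa (-1.49 ± 0.21) and Sparc (-0.80 ± 0.18), and in neutrophils Sparc (-1.17 ± 0.21) and C1qa (-1.43 ± 0.32), lay below 0. These are microglial genes, and the microglia marker sum was 400 and 463 CPM in T cells of the untreated and 252 and 289 CPM in those of the inhibitor-treated mice. In neutrophils Pmepa1 (-0.97 ± 0.28), Acvr2a (-2.13 ± 0.60) and Trim33 (0.50 ± 0.17) had the smallest p of their lists, and in T cells Itgae (-0.73 ± 0.20), Thbs1 (-0.78 ± 0.29) and Nedd4l (-0.69 ± 0.31).

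Genes with the most similar pattern to each member were sought over 48 sums (12 disjoint classes in 4 mice) among 6877 genes with a mean of at least 20 CPM. The sums share mice and library, and their depth differs with class size, so the correlations are a description. Tgfbi was most like Igsf6, Lyz1 and Ccl6 (Pearson r of log2(CPM + 1) 0.905, 0.896 and 0.892), and Tgfbr1 like Wdr81, Ctsb and P2ry13 (0.871, 0.867 and 0.861). The gene most like Tgfbr2 was the member Smad7 (0.797). Smad7 itself was most like H2-Q4 (0.900), Macf1 and B2m, and Smad3 and Ski shared Pld3 as their nearest gene (0.844 and 0.849). Tgfb1 was nearest to Ktn1 (0.849) and Skil to Ier5 (0.849). Smad2 and Smad4, which varied little between classes, had weak neighbours, with at most 0.466 (Tlk2) and 0.575 (Sdf2).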

How the data were processed

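Counts per gene and cell were deposited by the authors as 1 matrix of whole numbers, with the hashtag in each column name, and per the submitters' processing notes GRCm38 was used. The sources used here give neither aligner, counter nor strand setting, nor whether counts are molecules or reads, and per the labels about 28678 cells were loaded. Of 25461 columns, 3943 with more than 1 hashtag were not used as cells. Cells with over 20% mitochondrial counts (1014) and called doublets (1261, 6.15%; 8.72% and 8.45% in the untreated and 3.61% and 4.37% in the inhibitor-treated mice) were removed. Cells were scaled to 10000 counts, and 2000 variable genes and 40 components gave Leiden clusters (scikit-learn 1.9.0, igraph 0.11.9, leidenalg 0.10.2, resolution 1) with 82 member and pathway genes left out. Classes were named from marker lists, with at least 3 markers detected. Left unnamed were a cycling cluster led by Fcnb and Chil3 and another led by Stmn1 and Prss34, whose 10 leading genes held more markers of another class.

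Counts were summed per mouse and class. Each comparison was fitted with edgeR 4.0.16 (R 4.3.3) by the quasi-likelihood test with TMM scaling and filterByExpr, and p-values were Benjamini-Hochberg adjusted over all genes of a comparison. All 10 members passed the filter in every comparison. Class contrasts and differences of the inhibitor effect had the mouse as a block. The standard error is the size of the log2 fold divided by the root of the F statistic. DESeq2 1.42.0, RLE scaling, no filter, each mouse left out, called doublets kept, at most 10% mitochondrial counts, cells thinned to 2000 counts and resolution 1.5 were alternatives. Library size only, bias-adjusted deviances and microglia and macrophages with under 3 T cell receptor complex counts were added after seeing the data. The fits were tested on simulated data. Same-numbered mice did not deviate together (r = 0.017 over 8871 genes), so numbers were not taken as pairs. P-values of the inhibitor comparisons measure the spread between mice within a group. Those of the class contrasts and differences measure the spread left after the mouse block. All come from these 4 mice on 1 run.

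The members and lists were chosen with earlier results of these data known. Named besides the members were, per list, the up to 3 genes with the smallest unadjusted p in a class contrast and the 2 with the smallest in an inhibitor comparison, and for likeness the 3 genes with the highest correlation. Some genes this rule names are not reported here. Acvrl1 and Bhlhe40 levels, marker sums, cluster values and neutrophil clusters were described after their values were seen.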

Additional observations from a re-analysis of the deposited data

How the results depend on the processing

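With 2 mice a group, a member's log2 fold in an inhibitor comparison carries a standard error of 0.1 to 0.956; the parts of depth, cell number and spread between mice in it were not tested. Of the 10 members, 7 were called between microglia and monocytes or macrophages and 9 between neutrophils and T cells under each alternative that leaves out a mouse, and Smad2 and Smad4 reversed by library size only (-0.37 and -0.45). Between regulatory and CD4 T cells 2 were called, and 1 with called doublets kept, with cells thinned and in each fit without a mouse (1 to 1). Between CD8 and CD4 T cells 2 were called, 5 with no filter, 1 with cells thinned and 1 to 2 without a mouse. For the inhibitor, all kept cells went from 0 called to 1 (Tgfbi) with DESeq2 and to 0 to 1 without a mouse, where leaving out inhibitor-treated replicate 2 gave 1.44 (adjusted p = 0.00822). The classes went from 0 to 1 with no filter and to 0 to 2 without a mouse, and the differences of the inhibitor effect from 0 to 1 each with no filter, and for neutrophils against T cells to 0 to 1 without a mouse. The cause of these changes was not tested. The replicate block, a paired fit by replicate number, left 0 members called in all kept cells and in the classes. Over all genes, calls for the inhibitor in all kept cells went from 0 to 462 with DESeq2 and 2141 without inhibitor-treated replicate 2, and in microglia from 0 to 126 with DESeq2, 435 with no filter, 67 with the replicate block and 522 without untreated replicate 1. Between microglia and monocytes or macrophages they went from 3944 to 1848 with cells thinned, between regulatory and CD4 T cells from 1426 to 915, and between CD8 and CD4 T cells from 794 to 418.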
